A study of Homo sapiens with 4 samples.

Results

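The sequences described here carry a single DRACN motif each. DRACN stands for A, G or U, then A or G, then an adenosine, C and any base. It includes DRACH (H is A, C or U), the consensus context of N6-methyladenosine (m6A) in human mRNA. Of the 3488 designed sequences that represent human transcript loci, 230 held exactly 1 DRACN motif in the 141 counted columns (with its adenosine outside the 2 columns at either end), at the selected adenosine in column 51, and the other 3258 held 2 or more. Each of the 230 sequences was ordered in 3 versions with different tags, so that 690 of the 11999 oligonucleotides in the pool belonged to them. The 3 tag copies of a sequence share their insert and were summed. The choice used the designed sequence only and no measured value. It covers the counted columns only, and 217 of the 690 tags, as written in the oligonucleotide names, hold a DRACN themselves.

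The pool was transcribed in vitro and incubated with the recombinant METTL3–METTL14 complex in the methylated group or without the complex in the unmethylated group, with 2 libraries each. Both groups held the same purified synthetic RNA without cell extract, so neither group carried m6A made in cells. Crosslinks of an antibody against m6A were then counted at each nucleotide by miCLIP2, in which reverse transcription stops at the crosslinked antibody. The question behind the design was whether the writer complex alone prefers some motifs to others. Of the 230 sequences, 50.4% came from the m6A class, whose selected adenosine carries m6A in HEK293T cells, a line grown from human embryonic kidney. The other 49.6% came from the unmodified class, whose selected DRACH adenosine lacks m6A there.

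METTL3 is the catalytic subunit of the writer and METTL14 the partner that helps to bind the RNA. The complex methylates the adenosine of the DRACN context, with GGAC as its preferred core, and most matching adenosines in a cell are nevertheless left unmodified. In a sequence with several such motifs, antibody bound to any of them can add to the counts of the whole oligonucleotide, whereas a sequence with a single motif offers the writer only the selected adenosine in this context within the counted columns.

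The following 10 sequences show the range of responses. They are given as the RNA of columns 37 to 66, 5′ to 3′, with the DRACN 5-mer in capitals and the locus in GRCh38.p14. The first 5 have a GGACN motif and rose at the adenosine, the next 2 are the rises with the strongest signal among AAACA and AGACA motifs, GPATCH8 and FGFR3 have a GGACN motif with little change, and DLX1 fell.
ARRDC1, chr9:137614327-137614356, plus strand: uccacgacguacGGACCauugcggaggugg
PIGU, chr20:34560825-34560854, minus strand: acagggcugcauGGACCucagggggcugug
SH3GLB1, chr1:86704899-86704928, plus strand: gaugaauaucauGGACUucaacgugaagaa
LRFN3, chr19:35940459-35940488, plus strand: ccuuccccaaugGGACGcuggagcugcugg
PLEKHG5, chr1:6468075-6468104, minus strand: ccccagguauuaGGACUcagggcuccccuc
YWHAH, chr22:31956468-31956497, plus strand: uggggagaagaaAAACAguguggucgaagc
SLX9, chr21:44973240-44973269, plus strand: agcgcagcccagAGACAgcagcuucuguga
GPATCH8, chr17:44399090-44399119, minus strand: gagcuauagccgGGACCgcagccgcagcac
FGFR3, chr4:1803973-1804002, plus strand: ugcccaguguggGGACAaaguuggccuggc
DLX1, chr2:172085971-172086000, plus strand: gagccgccuggaGGACCcagguacgugcgc
Each locus is named by its gene. ARRDC1 encodes an arrestin-domain adaptor of ubiquitin ligases, PIGU a subunit of the GPI transamidase, SH3GLB1 an endophilin, LRFN3 a synaptic adhesion molecule and PLEKHG5 a guanine nucleotide exchange factor. YWHAH encodes a phosphoserine-binding adaptor, SLX9 a ribosome biogenesis factor, GPATCH8 an RNA-binding G-patch protein, FGFR3 a receptor tyrosine kinase and DLX1 a homeobox transcription factor.

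The methylated libraries held 13110615 and 13265092 counts in all, and the unmethylated ones 10483825 and 12028474. The lone-motif sequences took 6.85% and 6.66% of these in the methylated libraries, against 7.68% and 7.70% in the unmethylated ones. Their median total was 1030 and 1200.5 counts in the methylated libraries and 1084.5 and 1040 in the unmethylated ones, so that a typical sequence held only a few counts per column. Nothing in the labels says that the libraries of a group were separate reactions, and p-values therefore measure only the spread between these libraries, which may be technical.

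At the selected adenosine, the 230 sequences together held 18164 and 16781 counts in the methylated libraries, against 4857 and 6325 in the unmethylated ones. Scaled to library size as counts per 1e6 counts of the library (CPM), this was 1325 ± 85.1 in the methylated and 495 ± 44.2 in the unmethylated group (SD, n = 2 each), a ratio of 2.68. Both methylated libraries lay above both unmethylated ones, and the exact permutation p was 0.333 (two-sided). An exact permutation of 2 libraries against 2 cannot give a lower p. The PIGU sequence alone held 41.3% and 40.3% of the counts at the adenosine in the methylated libraries. Without PIGU the group values were 784 ± 41.3 CPM in the methylated and 470 ± 40.2 CPM in the unmethylated libraries (SD, n = 2 each), a ratio of 1.67.

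The adenosine was also set against its surroundings in the same sequences. It took 1.96% ± 0.0875 of the counts of the lone-motif sequences in the methylated libraries and 0.643% ± 0.0562 in the unmethylated ones (SD, n = 2 each), a ratio of 3.05, which was 2.11 without PIGU and DLX1. Without ARRDC1 as well, a set chosen after seeing the data, it was 1.88. The nucleotide 1 nt upstream had a ratio of 1.79, but 1.04 without these 2 sequences, and the nucleotide 1 nt downstream 1.21 and 1.09. The position 5 nt upstream had a ratio of 1.67, and 1.64 without PIGU and DLX1. Without ARRDC1 as well its ratio was 1.19. Adenosines before C that miss the motif because of a C 2 nt upstream had a ratio of 1.20, those with C or U directly upstream 1.01, adenosines not before C 0.951, and all other bases 0.987. A higher ratio, 4.85, was seen at 14 adenosines before C in the end columns, whose motif cannot be read in full. They held few counts, in the methylated libraries mostly at column 1 of TRAF3, and the other 13 held 35 and 19 counts in the methylated libraries, against 13 and 23 in the unmethylated ones, which overlap. These are pooled shares without a test of their own. Over sequences with at least 100 counts, the median rank of column 51 among the 141 columns was 41 and 44 in the methylated libraries, against 61.5 and 60 in the unmethylated ones. It was the highest column of a sequence only for PIGU, in both methylated libraries.

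Single sequences were tested with edgeR's quasi-likelihood test, fitted over all positions of all sequences and adjusted by the Benjamini-Hochberg method. A position needed 10 or more counts in 2 or more libraries. Of the 230 lone-motif sequences, 80 could be tested at the selected adenosine. Of these, the methylated libraries were higher in 29 and lower in 1, while over all 142937 positions tested 3.7% were higher and 2.01% lower. The selected adenosines of the several-motif sequences were higher in 446 of 1044 tested, or 42.7%, and lower in 0.192%. The median log2 fold change was 1.06 over the 80 lone-motif adenosines and 1.30 over the several-motif ones, and −0.01 over all positions. A fold change was above 0 in 68 of the 80. In 54 of the 80 both methylated libraries lay above both unmethylated ones, as in 776 of the 1044 several-motif adenosines. The lone-motif counts cannot stand for all members, because 21 of the 80 met the count minimum in the methylated libraries only, including 13 of the 29 rises, and none met it in the unmethylated libraries only. With DESeq2 in place of edgeR, 19 of the 80 were higher and 1 lower.

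The other 150 sequences had too few counts at the adenosine for a test, and 50 of them had none in any library. Pooled over these 150 and given per 1000 counts of the same sequences, the adenosine took 1.98 ± 0.205 in the methylated and 0.894 ± 0.0960 in the unmethylated group (SD, n = 2 each). The untested adenosines thus also had more counts in both methylated libraries. Their level lay far below that of the tested ones, which the count minimum largely fixed in advance.

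A change at the adenosine can also come from a change of the whole sequence. When each position was tested against the total of its sequence (edgeR with the log total as offset), 30 of the 80 lone-motif adenosines were higher and none lower, against 1.8% higher and 0.405% lower over all positions. No lone-motif adenosine was lower in this fit at an unadjusted p under 0.05 either, and DESeq2 called none lower. The several-motif adenosines were higher in 405 of 1044, or 38.8%, with a median log2 fold change of 1.27 against 1.29 in the lone-motif ones. Of the 29 rises, 27 were also called against the totals. EPHA2, an ephrin receptor, and MTMR3, a phosphoinositide phosphatase, were called only without the totals, and ATG4B, an autophagy protease, EPHA8, another ephrin receptor, and GNA13, a G protein subunit, only against them.

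The largest rise was at the GGACC of ARRDC1. Its adenosine held 1282 and 1313 counts in the methylated libraries, against 22 and 25 in the unmethylated ones. The groups did not overlap, and the log2 fold change was 5.52 ± 0.33 (SE; edgeR adjusted p = 7.05e-10). Against the total of the sequence it was 4.87 ± 0.27 (SE; edgeR adjusted p = 2.3e-12). All 3 tag copies rose in tests of their own, by 3.35 to 6.74 on the log2 scale. The highest column of ARRDC1 was nevertheless the U in column 46 in all libraries, with 7325 and 5549 counts in the methylated and 2562 and 3028 in the unmethylated ones. Column 51 ranked 2 in both methylated libraries and 66 and 68 in the unmethylated ones. The same GGACC in PIGU carried the most counts of all, 7496 and 6763 in the methylated libraries and 230 and 333 in the unmethylated ones. It rose by 4.41 ± 0.29 on the log2 scale (SE; edgeR adjusted p = 2.16e-09), and by 3.65 against its total. Per 1000 counts of PIGU, the adenosine took 91.3 and 92.2 in the methylated libraries, against 7.30 in both unmethylated ones.

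In PIGU the nucleotide 1 nt upstream of the adenosine rose as well, with 3881 and 4552 counts in the methylated libraries and 256 and 378 in the unmethylated ones. Its log2 fold change was 3.48 (edgeR adjusted p = 1.91e-08), and 2.73 against the total. The nucleotide 1 nt downstream held 545 and 554 counts in the methylated libraries, against 65 and 148 in the unmethylated ones, a log2 fold change of 2.13 (edgeR adjusted p = 0.000102). The upstream nucleotide also rose in SGPP1, ARRDC1 and SH3GLB1, by 2.49, 1.18 and 1.75 on the log2 scale, and kept its call against the total in SGPP1 and SH3GLB1 but not in ARRDC1 (edgeR adjusted p = 0.526). No other lone-motif sequence had a called rise there, of 67 tested.

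Several large rises rested on few counts in the unmethylated libraries. SGPP1, a sphingosine-1-phosphate phosphatase gene with a GGACA, held 42 and 39 counts in the methylated libraries and 2 and 0 in the unmethylated ones. The ratio of its summed CPM was 34.6, with a 95% counting interval of 9.27 to 290.3 that covers counting error only. ESPNL, which encodes an actin-bundling protein of hair cells and also has a GGACA, held 67 and 67 counts in the methylated libraries and 5 and 0 in the unmethylated ones, a ratio of 22.9 (95% counting interval 9.56 to 71.6). For both, the unmethylated counts came from 1 library, and the fitted log2 fold changes of 4.93 for SGPP1 and 4.42 for ESPNL moved to 3.94 and 3.39 without unmethylated replicate 2, and to 8.28 and 9.01 without unmethylated replicate 1. All 4 of these values were past the threshold in edgeR. DESeq2 did not call ESPNL (adjusted p = 0.08).

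AURKAIP1, SUN2 and ZNF775 each had 3 unmethylated counts in all. AURKAIP1, which encodes a mitochondrial ribosome protein, held 13 and 27 counts at its GGACU in the methylated libraries and 0 and 3 in the unmethylated ones, a ratio of 11.4 (95% counting interval 3.62 to 57.5). SUN2, a gene for an inner nuclear membrane protein, held 19 and 21 counts at its GGACG in the methylated libraries and 2 and 1 in the unmethylated ones, with the same ratio and interval. ZNF775, a zinc finger gene, held 24 and 15 counts at its GGACU in the methylated libraries and 1 and 2 in the unmethylated ones, a ratio of 11.1 (95% counting interval 3.53 to 56.1). In each, both methylated libraries lay above both unmethylated ones. The calls depended on single libraries. AURKAIP1 lost its call without methylated replicate 2 and without unmethylated replicate 1 (edgeR adjusted p = 0.307 and 0.0534), SUN2 without methylated replicate 1 or 2 (0.0776 and 0.0876), and ZNF775 without methylated replicate 1 (0.291).

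The remaining rises among the 10 largest were LRFN3, ASB6 and SH3GLB1. LRFN3 (GGACG) held 110 and 72 counts in the methylated libraries and 9 and 3 in the unmethylated ones, a log2 fold change of 3.64 ± 0.49 (SE; edgeR adjusted p = 3e-05). ASB6 (GGACC), which encodes a substrate adaptor of ubiquitin ligases, held 45 and 30 counts in the methylated libraries and 2 and 3 in the unmethylated ones, a log2 fold change of 3.60 ± 0.62 (SE; edgeR adjusted p = 0.000531). SH3GLB1 (GGACU) held 173 and 146 counts in the methylated libraries and 5 and 19 in the unmethylated ones, a log2 fold change of 3.48 ± 0.42 (SE; edgeR adjusted p = 6.42e-06). The unmethylated libraries of LRFN3 and SH3GLB1 were unequal, so that without unmethylated replicate 1 their log2 fold changes were 4.69 and 2.87, and without unmethylated replicate 2 they were 3.002 and 4.64. All 3 tag copies of LRFN3 and of SH3GLB1 were called higher, and of ASB6 the single copy that could be tested. PLEKHG5 was the strongest GGACU by signal, with 533 and 481 counts in the methylated libraries and 47 and 62 in the unmethylated ones. It rose by 2.96 ± 0.30 on the log2 scale (SE; edgeR adjusted p = 5e-07), in all 3 tag copies.

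Tag copies bore on how far a rise was shared within a sequence. For the 29 rises, 56 tag copies could be tested on their own. All 56 had a positive log2 fold change, between 0.44 and 6.80, and 49 were called higher. In 9 of the 29 sequences all 3 copies were called. The copies are not independent libraries, since they passed through the same reactions. The rises were called on the sum of these same copies, and in 9 sequences the single copy tested was the one called. Positive signs in the copies were therefore largely fixed in advance and are no further support for the rises.

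Responses were described by the bases upstream of the adenosine. Sequences with G at both upstream bases were higher in 21 of 41 tested, with a median log2 fold change of 1.70, and those with G and A, in that order, in 4 of 7 (median 1.53). Sequences with A and G were higher in 3 of 17 (median 0.28). None of the 13 tested sequences with U and G was called higher or lower by edgeR (median 0.05), 1 was higher at an unadjusted p under 0.05, and DESeq2 called none. Single tested sequences with A and A and with U and A had log2 fold changes of 1.63, which was called, and 0.59, which was not. In several-motif sequences the counts were 317 of 530 for G and G (median 2.18), 38 of 193 for A and G (0.74) and 28 of 141 for U and G (0.69). Whether the upstream bases act differently in lone-motif sequences was not tested. The lone-motif counts and medians cover tested adenosines only, and 21 of those 80 met the count minimum in the methylated libraries only.

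The same groups were pooled over all their sequences, tested or not. With G at both upstream bases, the adenosine took 27.4 ± 0.911 per 1000 counts in the methylated libraries and 5.23 ± 1.14 in the unmethylated ones (SD, n = 2 each). With A and G it took 14.1 ± 0.860 in the methylated and 9.82 ± 0.411 in the unmethylated libraries, and with U and G 7.43 ± 0.525 in the methylated and 6.09 ± 1.05 in the unmethylated ones (SD, n = 2 each). With G and A it took 6.84 ± 0.796 in the methylated and 1.73 ± 0.191 in the unmethylated libraries (SD, n = 2 each), a ratio of 3.95. With A and A, where YWHAH was the single tested sequence, the values were 25.3 ± 0.183 in the methylated and 7.53 ± 1.77 in the unmethylated libraries. With U and A they were 4.18 ± 0.560 in the methylated and 2.41 ± 0.407 in the unmethylated libraries (SD, n = 2 each). In every group both methylated libraries lay above both unmethylated ones. The level of the first group rested on PIGU. Without it, a set chosen after seeing the data, the adenosine took 13.4 ± 0.162 per 1000 counts in the methylated and 5.04 ± 1.22 in the unmethylated libraries (SD, n = 2 each), a ratio of 2.67 in place of 5.23. The methylated level was then no higher than with A and G, where the ratio was 1.44. Without DLX1 as well, also chosen after seeing the data, the first group took 13.4 ± 0.188 in the methylated and 3.87 ± 0.522 in the unmethylated libraries (SD, n = 2 each). The ratio was then 3.47. The sequences were also grouped by the base 2 nt downstream. All 4 tested sequences with G there, each a GGACG outside the DRACH consensus, were called higher (median 3.35), and 2 further GGACG sequences had too few counts for a test. With U there, 11 of 28 were higher, with C 7 of 23 and with A 7 of 25. In several-motif sequences, 77.2% of 57 tested adenosines with G there were also higher. With A there it was 45.1% of 277, with U 40.7% of 420 and with C 36.6% of 290. Whether this base acts differently in lone-motif sequences was not tested. The lone-motif counts cannot be read as a difference between the bases, because some sequences met the count minimum in the methylated libraries only. This held for 3 of the 4 with G and for 6 tested sequences with each of the other bases.

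Among motifs other than GGACN, the rise with the highest signal was at the AAACA of YWHAH. It held 863 and 828 counts in the methylated libraries and 250 and 204 in the unmethylated ones, without overlap, and rose by 1.63 ± 0.27 on the log2 scale (SE; edgeR adjusted p = 0.000421). Most of these counts came from 1 tag copy, with 812 and 766 in the methylated and 236 and 193 in the unmethylated libraries, but the other 2 copies were called higher as well. SLX9 (AGACA) had 10.1 and 8.67 CPM in the methylated libraries and 1.91 and 2.58 CPM in the unmethylated ones, a log2 fold change of 2.02 ± 0.35 (SE; edgeR adjusted p = 0.00057). AKAP8L (AGACU), a gene for a nuclear anchoring protein of protein kinase A, held 207 and 251 counts in the methylated libraries and 36 and 61 in the unmethylated ones, a log2 fold change of 1.98 ± 0.32 (SE; edgeR adjusted p = 0.000231). Only 1 of its tag copies had enough counts for a test. An AGACA at position 74952914 of chromosome 9, in no annotated gene, was among the 3 lone-motif sequences with the most counts. Its adenosine held 1086 and 868 counts in the methylated libraries and 797 and 786 in the unmethylated ones, a log2 fold change of 0.05 ± 0.26 (SE; edgeR adjusted p = 0.956).

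The GAACN motifs rose in 3 of the sequences named here. HMOX1 (GAACU), which encodes an inducible haem oxygenase, had 8.85 and 8.07 CPM in the methylated libraries and 1.14 and 2.08 CPM in the unmethylated ones, a log2 fold change of 2.34 ± 0.38 (SE; edgeR adjusted p = 0.000277). PUS1 (GAACC), a pseudouridine synthase gene, held 45 and 43 counts in the methylated libraries and 10 and 7 in the unmethylated ones, a log2 fold change of 2.09 ± 0.47 (SE; edgeR adjusted p = 0.00701). MTMR3 (GAACA) held 39 and 49 counts in the methylated libraries and 15 and 11 in the unmethylated ones, a log2 fold change of 1.48 ± 0.44 (SE; edgeR adjusted p = 0.0446). Its call was lost without methylated replicate 1 or 2 or unmethylated replicate 2 (edgeR adjusted p = 0.0881, 0.194 and 0.178), with DESeq2 (0.181) and with a minimum of 1 count (0.0673). Its 2 tested tag copies also differed, with 20 and 26 counts in the methylated and 2 and 0 in the unmethylated libraries in one copy, and 16 and 23 in the methylated and 13 and 11 in the unmethylated libraries in the other.

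A GGACN motif did not always go with a rise. Of 41 tested sequences with G at both upstream bases, 19 were not called and 1 was lower. GPATCH8 (GGACC) held 664 and 581 counts in the methylated libraries, against 407 and 589 in the unmethylated ones, and the groups overlapped. Its log2 fold change was 0.07 ± 0.27 (SE; edgeR adjusted p = 0.928) and changed sign with the libraries left out, to −0.07 without methylated replicate 1 and −0.11 without unmethylated replicate 1. Its tag copies did not behave alike. The copy with the most counts held 601 and 536 in the methylated and 402 and 576 in the unmethylated libraries, a log2 fold change of −0.02 (edgeR adjusted p = 0.985 over tag copies). The next copy held 56 and 37 counts in the methylated and 5 and 12 in the unmethylated libraries and was called higher, by 2.20 (edgeR adjusted p = 0.00841), and the smallest copy held 7 and 8 in the methylated and 0 and 1 in the unmethylated libraries, too few for a test. FGFR3 (GGACA) held 37 and 31 counts in the methylated libraries and 17 and 31 in the unmethylated ones, a log2 fold change of 0.25 ± 0.42 (SE; edgeR adjusted p = 0.818), which was −0.06 without unmethylated replicate 1. TNNT1 (GGACA), a gene for the slow skeletal muscle troponin T, held 52 and 46 counts in the methylated libraries and 29 and 37 in the unmethylated ones. Its log2 fold change of 0.32 ± 0.37 was not called (SE; edgeR adjusted p = 0.722), while its whole sequence fell by 0.72 (edgeR adjusted p = 0.0093).

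The lone-motif sequences fall into the 2 classes by their state in HEK293T cells. In the m6A class 26 of 53 tested adenosines were higher (median log2 fold change 1.48), and in the unmodified class 3 of 27 (median 0.27), namely AURKAIP1, SLX9 and LYRM1, which encodes a LYR-motif protein. Among several-motif sequences the counts were 353 of 701 in the m6A class and 93 of 343 in the unmodified class. Counts and medians by class cover tested adenosines only and cannot stand for all members. Of the 80 lone-motif adenosines tested, 21 met the count minimum in the methylated libraries only. Pooled over all members, the adenosine took 26.2 ± 0.908 per 1000 counts of m6A-class sequences in the methylated libraries and 6.02 ± 0.415 in the unmethylated ones (SD, n = 2 each). In the unmodified class it took 10.04 ± 0.741 in the methylated and 7.02 ± 0.808 in the unmethylated libraries (SD, n = 2 each). The log2 ratio of the m6A class over the unmodified class was 1.38 in the methylated libraries and −0.22 in the unmethylated ones, a difference of 1.60. Without PIGU, which belongs to the m6A class, it was 0.81, and with the unmodified class weighted to the 5-mers of the m6A class 0.82. The exact permutation p of 0.333 is again the smallest possible. Among sequences with G at both upstream bases, 19 of 35 were higher in the m6A class (median 2.30) and 2 of 6 in the unmodified class (median 1.37).

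The share of counts at the selected adenosine was set against that in sequences with more motifs. In lone-motif sequences it was 20.2 and 18.996 per 1000 counts in the methylated libraries, against 6.04 and 6.83 in the unmethylated ones. In sequences with 2 motifs it was 10.1 and 10.3 in the methylated libraries and 4.20 and 4.28 in the unmethylated ones, and with 5 or more motifs 11.3 and 10.1 in the methylated and 4.81 and 5.09 in the unmethylated ones. The log2 share in lone-motif minus several-motif sequences was 0.78 ± 0.00277 in the methylated and 0.39 ± 0.0576 in the unmethylated libraries (SD, n = 2 each), a difference of 0.39 with the smallest possible exact permutation p of 0.333. Without PIGU the difference was −0.23, and as a median over sequences it was 0.027. Its sign therefore rested on 1 of the 230 sequences, and a larger response of lone motifs was not shown.

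The totals of whole sequences were the other readout. The totals of the 230 lone-motif sequences summed to 67533 ± 1326 CPM in the methylated libraries and 76866 ± 161 CPM in the unmethylated ones (SD, n = 2 each), a ratio of 0.879 with an exact permutation p of 0.333. Without DLX1 the ratio was 0.941, and without PIGU it was 0.839. Tested by edgeR, 5 of 220 totals were higher and 20 lower, the falls being 9.09%. Over all 3828 sequences tested 10.4% were higher and 6.66% lower, and over the 3161 several-motif totals 11.2% and 6.42%. With 2 motifs 26 of 595 were higher and 48 lower, with 3 motifs 83 and 48 of 810, with 4 motifs 95 and 53 of 756, and with 5 or more 151 and 54 of 1000. The median log2 fold change of the total was −0.15 with 1 motif, −0.06 with 2, 0.00 with 3, 0.01 with 4 and 0.07 with 5 or more. CPM are shares of a library, so that a lower share here goes with a higher share elsewhere. The base composition changed along with the number of motifs, with a median GC content of 63.1% in lone-motif sequences and 53.2% in those with 5 or more, and the part of composition in these totals was not tested. The counts depended on single libraries. Leaving out methylated replicate 1 gave 2 rises and 15 falls. Leaving out unmethylated replicate 1 gave 4 and 15, and unmethylated replicate 2, 3 and 12.

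The 5 lone-motif sequences with higher totals included both of the strongest adenosines. PIGU held 82135 and 73332 counts in the methylated libraries and 31488 and 45618 in the unmethylated ones, a log2 fold change of 0.78 ± 0.24 (SE; edgeR adjusted p = 0.0236). ARRDC1 held 23667 and 20374 counts in the methylated libraries and 10427 and 12872 in the unmethylated ones, a log2 fold change of 0.69 ± 0.20 (SE; edgeR adjusted p = 0.016). Both groups of libraries were apart in each, but the calls were lost without methylated replicate 1 (edgeR adjusted p = 0.206 for PIGU and 0.183 for ARRDC1) or unmethylated replicate 1 (0.203 and 0.129). EPHA2 held 676 and 728 counts in the methylated libraries and 376 and 344 in the unmethylated ones and rose by 0.72 (edgeR adjusted p = 0.00752), and it lost its call without unmethylated replicate 2 (edgeR adjusted p = 0.0871). MYH9, which encodes a nonmuscle myosin heavy chain, held 2939 and 1963 counts in the methylated libraries and 1409 and 1381 in the unmethylated ones and rose by 0.59 (edgeR adjusted p = 0.0335), and it lost its call without methylated replicate 1 (edgeR adjusted p = 0.681) or unmethylated replicate 2 (0.0807) and with DESeq2 (0.0547). The largest fold was in a UGACC sequence of ARHGDIA, which had 4.96 and 8.52 CPM in all in the methylated libraries and 2.38 and 1.496 CPM in the unmethylated ones, a log2 fold change of 1.79 (edgeR adjusted p = 0.00122). Nearly all of its extra counts were in 1 tag copy, with 51 and 89 counts in the methylated and 10 and 4 in the unmethylated libraries.

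The largest fall was in DLX1. Its whole sequence held 10982 and 10742 counts in the methylated libraries and 58187 and 76282 in the unmethylated ones, a log2 fold change of −2.86 ± 0.23 (SE; edgeR adjusted p = 2.09e-08). All 3 tag copies fell together at column 51, by −2.35, −2.62 and −3.06 on the log2 scale. The GGACC adenosine had 10.98 and 11.4 CPM in the methylated libraries and 42.7 and 84.97 CPM in the unmethylated ones, the single called fall among the 80 tested adenosines, at −2.55 ± 0.32 (SE; edgeR adjusted p = 1.12e-05). The unmethylated libraries were unequal, and without unmethylated replicate 2 the value was −1.93. Against the total of the sequence the adenosine was not called, at 0.36 ± 0.24 (SE; edgeR adjusted p = 0.597). Of the other 140 columns of DLX1, all tested, 97.1% were called lower. Without methylated replicate 1 there were 2 called falls among the lone-motif adenosines in place of 1.

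The next largest falls of whole sequences were in EID2, KLHDC3 and FADS2. FADS2, a fatty acid desaturase gene with an AGACA, held 5680 and 5240 counts in the methylated libraries and 9867 and 12906 in the unmethylated ones, a log2 fold change of −1.29 ± 0.18 (SE; edgeR adjusted p = 2.2e-05). KLHDC3, which encodes a substrate receptor of a ubiquitin ligase, held 164 and 157 counts in the methylated libraries and 601 and 514 in the unmethylated ones, a log2 fold change of −2.03 (edgeR adjusted p = 4.57e-07). Its fall was seen in all 3 tag copies, whose totals were 44 to 64 in the methylated and 156 to 229 in the unmethylated libraries. EID2, an inhibitor of differentiation, held only 15 and 21 counts in the methylated libraries and 78 and 71 in the unmethylated ones, a log2 fold change of −2.29 (edgeR adjusted p = 8.14e-05). The adenosine of EID2 had no count in any library. Both methylated libraries lay below both unmethylated ones in all 3. The fifth largest fall was in a GGACC sequence at position 74458517 of chromosome 2, which lies in more than 1 gene, with 2122 and 1988 counts in the methylated libraries and 2802 and 3677 in the unmethylated ones.

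Positions other than the selected adenosine served as a comparison within the same sequences. Of 9298 such positions tested, 86 were higher, or 0.925%, and 278 lower, while over all positions 3.7% were higher and 2.01% lower. Among the falls, 48.9% were in DLX1 and 52 were in FADS2. Of the rises, 27 were in PIGU and 17 in ARRDC1. Against the totals of the sequences, 37 were higher and 38 lower, in 23 sequences for the rises, so that 0.398% of these positions were higher where 1.8% of all positions were. Over all positions 0.405% were lower against the totals. A rise away from the motif with many counts was at an A before G in PDS5A, a cohesin regulator gene, chosen here after its values were seen. It held 793 and 909 counts in the methylated libraries and 97 and 171 in the unmethylated ones, and its log2 fold change against the total was 2.46 ± 0.24 (SE). ARRDC1 also rose at the A in column 43, in CGACG, where the C 2 nt upstream is the single mismatch to DRACN. It held 98 and 96 counts in the methylated libraries and 8 and 11 in the unmethylated ones, and its log2 fold change against the total was 2.43 ± 0.39 (SE; edgeR adjusted p = 0.000201).

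Pairing and base composition were described for the 80 tested adenosines. With a predicted pairing probability above 0.5, 14 of 31 adenosines were higher (median log2 fold change 1.32), and with at most 0.5, 15 of 49 (0.88). PIGU and ARRDC1 differed here, with predicted pairing probabilities of 0.0051 and 0.9. Across the 80 sequences, Spearman's correlation of the log2 fold change was 0.17 with the pairing probability and −0.36 with the GC content. These are correlations across sequences that share their libraries, given as descriptions. Sequences with a GC content up to the median were higher in 23 of 44 and those above it in 6 of 36, and depth and motif were not held equal between them.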

How the data were processed

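Per the labels' protocols, a designed RNA pool was incubated with or without METTL3–METTL14 and taken through miCLIP2, and 2 libraries per group were deposited. The authors deposited raw counts per nucleotide column, oligonucleotide and library, without normalization. FastQC 0.11.8, STAR 2.7.3a and bedtools 2.27.1 appear in the submitters' processing notes, while the sources used here do not give their roles or say whether duplicate reads were removed. Counts may thus repeat one molecule, and intervals cover counting error only.

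Counts of the 3 tag copies of a sequence were summed. Positions, positions with the log sequence total as offset, and sequence totals were each fitted over the whole table with edgeR 4.0.16 (quasi-likelihood F test, TMM scaling, group as the only term, at least 10 counts in at least 2 libraries) in R 4.3.3, two-sided, calling adjusted p-values (Benjamini-Hochberg) under 0.05. A standard error is the log2 fold change divided by the root of F. Tested on simulated data, the position fit recovered 42 of 50 positions raised 4-fold and 3 of 50 raised 2-fold. It recovered 23 of 50 positions lowered 4-fold, so that falls were found less readily than rises. Against totals, 40 of 50 positions raised 4-fold and 24 of 50 lowered 4-fold were recovered. The simulation used the same dispersion for every position, not estimated from these data. Pooled values were compared by exact permutation over libraries. As alternatives, DESeq2 1.42.0 replaced edgeR, library totals replaced TMM, count minimums changed, tag copies were tested singly, and a replicate block or the loss of each library was tried.

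Table coordinates were checked on GRCh38.p14: in 128 of 128 loci that overlap a RefSeq promoter window, the 41 nt around column 51 were identical. RefSeq genes named 217 of the 230 loci, 207 of them distinct; exon and UTR annotation was not used here. Pairing came from ViennaRNA 2.7.2. Named sequences were, where the 2 groups did not overlap, the 10 largest called rises, the called rise with the highest mean CPM for each 5-mer and called falls, and also the 3 sequences with the most counts, the 5 largest called changes of totals each way and the 3 tested GGACN sequences with the smallest change. Members and lists were chosen with earlier results of these data known.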

Additional observations from a re-analysis of the deposited data

Results flagged for a closer look

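The largest rise against totals away from the selected adenosine, already counted among the 37 such rises, was at column 1 of the TRAF3 sequence. This is an A before C whose upstream bases lie outside the counted columns, so that its motif is not known here. TRAF3 encodes an adaptor of tumour necrosis factor receptors. Column 1 held 91 and 77 counts in the methylated libraries, against 4 and 5 in the unmethylated ones. Its log2 fold change against the total of the sequence was 3.70 ± 0.45 (SE; edgeR adjusted p = 3.17e-06), larger than at the selected AGACC of the same sequence, where it was −0.21 and not called (edgeR adjusted p = 0.88). It was singled out because column 1 was not searched for motifs and lay above both unmethylated libraries.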

How the results depend on the processing

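Of the 29 rises at the adenosine, 13 were called under every alternative that kept the tag copies summed. Among these alternatives, a minimum of 50 counts tested only 30 of the 80 adenosines and called 16 of the 29 rises. Rises such as SGPP1, ASB6 and PUS1 had too few counts to be tested with it. DESeq2 called 19 rises and a minimum of 50 counts 18 of 30 tested. Tag copies tested on their own gave 54 rises and 3 falls at the adenosine, 55 rises against totals, and 18 rises and 34 falls in totals, over 587 totals. With each library left out in turn, there were 21 to 28 rises and 1 to 2 falls at the adenosine, 25 to 32 rises against totals, and 2 to 6 rises and 12 to 16 falls in totals. Libraries of different groups share replicate numbers only: deviations of same-numbered libraries correlated at −0.07 over positions and −0.30 over totals. With the replicate block there were 29 rises and 1 fall at the adenosine, 33 rises against totals, and 3 rises and 12 falls in totals, where PIGU (edgeR adjusted p = 0.218) and ARRDC1 (0.0933) were no longer called. With crossed numbers as the block, chosen after seeing the data, there were 33 rises and 2 falls at the adenosine and 11 rises and 42 falls in totals. Scaling by library totals changed no count by more than 1.5 times, and could not be run against totals, where the offset replaces it. Of its 20 falls in totals, however, only 15 were among the 20 falls of the main fit. The pooled log2 ratio at the adenosine was 1.42, and 0.74 without PIGU, 1.61 without DLX1 (chosen after seeing the data), 1.08 as a median over sequences and 1.61 as a share of the same sequences. The pooled log2 ratio of totals was −0.19, and −0.25 without PIGU, −0.088 without DLX1 and −0.14 as a median. The lone-motif minus several-motif difference of 0.39 was −0.23 without PIGU, 0.47 without DLX1, 0.027 as a median, 0.37 weighted to one 5-mer composition and 0.39 with the replicate block. The class difference of 1.60 was 0.81 without PIGU, 1.79 without DLX1, 1.15 as a median and 0.82 weighted. With each library left out, these 4 values lay between 1.33 and 1.51, −0.21 and −0.17, 0.35 and 0.43, and 1.55 and 1.65. Of the sequences named, 255 single values kept their side of the threshold over the alternatives and 21 lost their call. No called value changed sign, while 3 uncalled ones did: GPATCH8 to −0.07 and −0.11 without methylated or unmethylated replicate 1, and FGFR3 to −0.06 without unmethylated replicate 1. Depth limits the rest: at the adenosine, 150 of 230 sequences had too few counts for a test.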
